A study of Mus musculus with 6 samples.

Results

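The triad genes studied here are Ryr1, Ryr3, Cacna1s, Cacnb1, Cacng1, Cacna2d1, Stac3, Jph1, Jph2 and Jsrp1, which encode the voltage sensor and the calcium release channels of skeletal muscle and the proteins that join them. They were chosen by gene symbol, and all 10 were found among the 18864 gene symbols of the count table. RNA was sequenced from 6 cultures of mouse satellite cells (muscle stem cells) isolated from the gastrocnemius muscle of C57Bl/6 mice (written C56Bl/6 in the sample labels) and grown on matrigel, a basement membrane extract. In 3 of them the differentiation medium held 0.25% BAPN (beta-aminopropionitrile, an irreversible inhibitor of lysyl oxidases, the enzymes that cross-link collagen and elastin) for 24 h, and the other 3, the controls, were differentiated without BAPN. The labels name no genetic change in either group. They give the age of the mice as 8 weeks in the characteristics and as 6 weeks in the growth protocol, and the serum of the medium as 4% horse serum or 10% fetal calf serum. Fibroblasts had been reduced by repeated plating and not by sorting, and the labels do not say how many animals gave each culture. The comparison asks whether the machinery of excitation-contraction coupling is expressed at another level when lysyl oxidases are inhibited during differentiation.

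In a muscle fibre the membrane forms inward tubules (T-tubules), and each tubule is flanked by terminal cisternae of the sarcoplasmic reticulum, the calcium store, to make a triad. The voltage sensor in the tubule is the L-type calcium channel, with its pore and sensor subunit from Cacna1s and accessory subunits from Cacnb1, Cacna2d1 and Cacng1. It is coupled through the adaptor Stac3 to the ryanodine receptor Ryr1, which releases calcium from the store, and junctophilins hold the membranes together. Transcription of these genes rises when myoblasts differentiate.

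Library totals lay between 17125602 and 18617656 counts with BAPN and between 18335559 and 18682099 counts in controls. Replicates 1 and 2 of each group lay close together: their counts differed with a chi-square per degree of freedom of 2.1 with BAPN and 2.28 in controls, where sampling noise alone gives about 1, against 19.7 to 22 for each comparison with replicate 3. They differed by more than sampling noise and were counted as separate samples, and the series description calls the replicates independent without saying what a number marks. A p-value here measures only how far these libraries spread, which may be technical, and results are also given with replicates 1 and 2 summed. The RNA of 2 samples, which the labels do not identify, had an RNA integrity number below 7.5, where most others were above 8.1, and the part of this in the results was not tested. Muscle identity was checked with 15 summed markers, which reached 363657 to 473862 normalized counts with BAPN and 756281 to 1021815 in controls. The fibroblast list summed to 8026 to 9000 with BAPN and 10176 to 12447 in controls. It held Tcf4, which is not specific to fibroblasts and averaged 3925 with BAPN and 3464 in controls. Smooth muscle markers summed to 66083 to 74707 with BAPN and 103101 to 131121 in controls. They include the muscle gene Des (mean 43115 with BAPN, 63092 in controls). Acta2, which is not restricted to smooth muscle, averaged 22340 with BAPN and 43877 in controls. The endothelial, macrophage and adipocyte lists summed to at most 308 with BAPN and 262 in controls.

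Promoter windows are shown for the voltage sensor subunit with the largest change, for the member with the smallest p and for the release channel. These genes were picked by their results, and any part of these sequences in the fall was not tested. They are RefSeq sequences in GRCm38.p6, given in the direction of transcription, that end at the RefSeq start or at the first GENCODE exon of the gene, whichever comes first. Capitals mark the E-box, CANNTG, the hexamer bound by MyoD-family factors. It reads alike on both strands.
Cacna1s, chr1:136052561-136052749, plus strand: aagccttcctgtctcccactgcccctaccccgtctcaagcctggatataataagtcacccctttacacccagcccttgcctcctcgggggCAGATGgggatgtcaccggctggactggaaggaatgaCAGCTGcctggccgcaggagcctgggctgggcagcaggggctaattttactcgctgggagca
Jph2, chr2:163397994-163398243, minus strand: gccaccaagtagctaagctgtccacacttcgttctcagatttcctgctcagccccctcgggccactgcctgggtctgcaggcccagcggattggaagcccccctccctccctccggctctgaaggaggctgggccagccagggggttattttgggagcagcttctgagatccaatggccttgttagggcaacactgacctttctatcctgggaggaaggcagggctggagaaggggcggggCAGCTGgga
Ryr1, chr7:29125180-29125401, minus strand: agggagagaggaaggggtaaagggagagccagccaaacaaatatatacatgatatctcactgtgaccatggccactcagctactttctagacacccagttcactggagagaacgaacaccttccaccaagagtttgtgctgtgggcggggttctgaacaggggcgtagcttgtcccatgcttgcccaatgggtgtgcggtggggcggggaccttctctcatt
The Cacna1s window held 2 E-boxes, CAGATG and CAGCTG, whose first bases lay 160 and 123 bases before the RefSeq start. In Jph2 there was 1 E-box, CAGCTG, which began 9 bases before the start of the window shown. The same hexamer began 29 bases before another RefSeq start of Jph2. No CANNTG was found in the 250 bases before the Ryr1 start. Of 32851 RefSeq windows of 250 bases, 66.2% held at least 1 CANNTG and 13% held CAGCTG, so a CANNTG in such a window is common. Of the 10 genes, 5 had a promoter row. Cacnb1 had 2 start sites, 1 of which had CACATG at 27 bases before it. The Cacna2d1 window and the other Cacnb1 window held no CANNTG. None of the windows of these 5 genes held a MEF2 site (found in 0.508% of all windows), a CArG box (1.47%) or TATAAA on either strand (12.4%).

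After BAPN, 9 of the 10 triad genes were lower and 0 were higher at an adjusted p under 0.05 (edgeR's quasi-likelihood test, adjusted over all 13716 genes tested). Over all genes tested, 20.8% were called lower and 15.6% higher, or 36.4% in either direction. That excess of lower over higher calls depends on the scaling, since TMM scaling gave 2381 lower and 2450 higher, with the same 9 members lower. The member that did not pass was Ryr3. The log2 fold changes (BAPN over control) ran from -1.19 for Cacna1s to -0.44 for Ryr3, with a median of -0.69, against a median of -0.032 over all genes tested. Every BAPN library was below every control library for 9 members, which held for 28.5% of all genes tested, and no member had every BAPN library above every control library (22.4% of all genes; 50.9% in either direction). With replicates 1 and 2 summed, 5 members were called lower, against 5.9% of all genes. RNA was measured in bulk, so fewer differentiated cells and less of these transcripts per cell cannot be told apart.

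**Figure D1:**
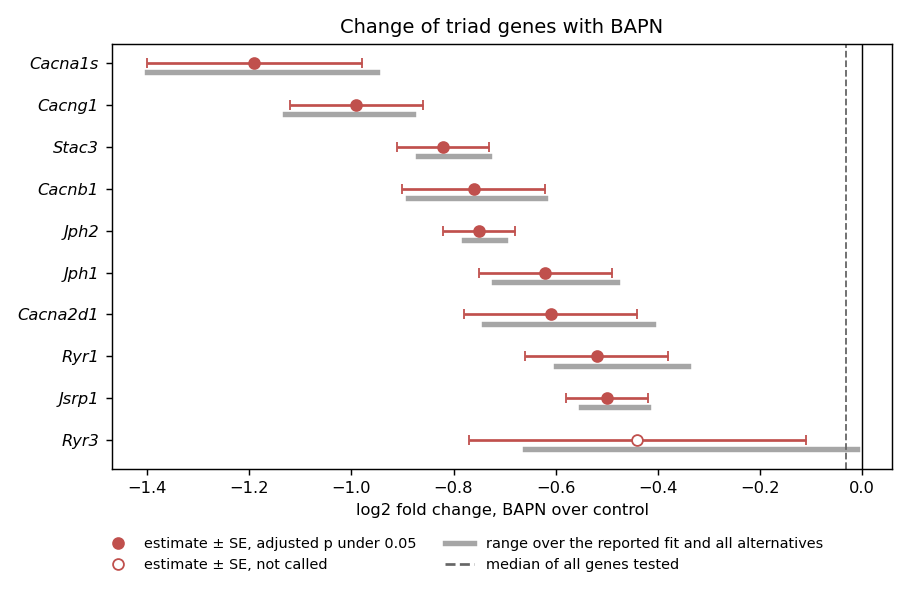
Log2 fold change of each triad gene, BAPN over control (x axis), by gene (rows, largest fall at the top), with its standard error, and the range over the reported fit and all alternative settings as a grey bar. The 9 filled points lie between -1.19 and -0.50, and the open point is Ryr3 at -0.44, which was not called and whose grey bar runs up to -0.01.

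Among the subunits of the voltage sensor, the pore-forming one changed most. Cacna1s (chromosome 1, 136052750 to 136119822, plus strand) encodes the subunit that senses the membrane voltage. Its normalized count was 1901.4, 1971.7 and 2821.6 in BAPN replicates 1, 2 and 3, against 4434.0, 4186.2 and 6698.4 in control replicates 1, 2 and 3. The groups did not overlap, and replicate 3 was the highest library in both. The mean was 2232 ± 512 with BAPN and 5106 ± 1384 in controls (n = 3 each, SD), for a log2 fold change of -1.19 (standard error 0.21, adjusted p = 0.0043 in edgeR), or 2.29-fold lower. It was the only member called lower by at least 2-fold, as were 2.95% of all genes tested.

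Cacng1 (chromosome 11, 107703218 to 107716522, minus strand), the gamma subunit, fell by nearly as much. It had normalized counts of 2773.4, 3007.4 and 3790.5 with BAPN, against 6013.2, 5733.0 and 7285.4 in controls. No BAPN library came near the lowest control, and the log2 fold change was -0.99 (standard error 0.13, adjusted p = 0.0015 in edgeR).

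Cacnb1 (chromosome 11, 98001508 to 98023034, minus strand) encodes the beta subunit on the cytoplasmic side, which carries the channel to the membrane. Its normalized counts were 2372.5, 2453.2 and 3087.9 with BAPN, against 4104.9, 4001.2 and 5312.3 in controls, with a log2 fold change of -0.76 (standard error 0.14, adjusted p = 0.0046 in edgeR). The values for BAPN stayed apart from those of controls, although the adjusted p was 0.0504 with replicates 1 and 2 summed.

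Cacna2d1 (chromosome 5, 15934691 to 16374511, plus strand), the alpha2-delta subunit, which is not restricted to muscle, fell least of the 4 channel subunits. It had normalized counts of 2802.4, 3071.7 and 3774.9 with BAPN, against 4337.2, 4179.1 and 6253.0 in controls, giving a log2 fold change of -0.61 (standard error 0.17, adjusted p = 0.025 in edgeR). The highest BAPN library lay not far below the lowest control, and the gene was no longer called when BAPN replicate 1 (adjusted p = 0.086 in edgeR) or BAPN replicate 2 (0.082) was left out, or with replicates 1 and 2 summed (0.10).

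Both proteins that bind the voltage sensor at the triad had narrow spreads and were lower. Stac3 (chromosome 10, 127501686 to 127508823, plus strand) is the adaptor that voltage-gated calcium release in skeletal muscle requires. Its normalized counts were 2527.0, 2678.6 and 2898.3 with BAPN, against 4569.5, 4402.7 and 5321.2 in controls, giving a log2 fold change of -0.82 (standard error 0.09, adjusted p = 6.4e-04 in edgeR). Jsrp1 (chromosome 10, 80808496 to 80813498, minus strand) encodes JP-45, a junctional protein that binds the channel and calsequestrin. It had normalized counts of 2619.8, 2721.5 and 2966.7 with BAPN, against 3681.1, 3751.2 and 4308.7 in controls, and a log2 fold change of -0.50 (standard error 0.08, adjusted p = 0.0031 in edgeR). Neither gene's groups overlapped, and both calls held in all 16 alternative settings.

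Of the release channels, Ryr1 was lower and Ryr3 was not called. Ryr1 (chromosome 7, 29003344 to 29125179, minus strand), the release channel of skeletal muscle, had normalized counts of 10521.2, 11460.5 and 12748.5 with BAPN, against 14632.6, 14578.0 and 20545.2 in controls. The means were 11577 ± 1118 with BAPN and 16585 ± 3430 in controls (n = 3 each, SD), for a log2 fold change of -0.52 (standard error 0.14, adjusted p = 0.025 in edgeR). Control replicate 3 stood above the other controls, and without it the log2 fold change was -0.34. The Ryr1 call did not survive leaving out BAPN replicate 1 (adjusted p = 0.086 in edgeR) or BAPN replicate 2 (0.077), or with replicates 1 and 2 summed (0.11).

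Ryr3 (chromosome 2, 112631355 to 113217096, minus strand), a second release channel of developing muscle, was the scarcest member. It had 68, 101 and 109 raw counts with BAPN, against 81, 97 and 169 in controls, or, as normalized counts, 63.7, 94.1 and 112.9 with BAPN, against 82.5, 98.6 and 186.8 in controls. The groups overlapped, since BAPN replicates 2 and 3 exceeded control replicate 1, and control replicate 3 was 2.06 times the mean of the other controls. The log2 fold change was -0.44 (standard error 0.33, adjusted p = 0.34 in edgeR; 0.057 with the replicate block), and -0.01 without control replicate 3, so that the size of the fitted change rests on that library. Ryr3 shares exonic sequence with Aven on the opposite strand, which had more normalized counts (mean 343.5 with BAPN and 434.1 in controls) and was itself called lower (-0.34, adjusted p = 0.017 in edgeR). With no strand setting given, reads within the shared stretch cannot be told apart, and their part in the Ryr3 counts was not measured.

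Both junctophilins, which span the gap between T-tubule and sarcoplasmic reticulum, fell. Jph2 (chromosome 2, 163336242 to 163397993, minus strand), which is also the junctophilin of heart, had the smallest p of the members. Its normalized counts were 8900.8, 9003.5 and 9620.2 with BAPN, against 15066.7, 14754.8 and 16379.1 in controls, giving a log2 fold change of -0.75 (standard error 0.07, adjusted p = 3.6e-04 in edgeR). The coefficient of variation was 4.24% with BAPN and 5.6% in controls, the lowest among the members in both groups. Jph1 (chromosome 1, 16964560 to 17097889, minus strand), the junctophilin typical of skeletal muscle, had normalized counts of 1682.2, 1727.7 and 2053.8 with BAPN, against 2611.3, 2464.6 and 3349.2 in controls. Its log2 fold change was -0.62 (standard error 0.13, adjusted p = 0.0076 in edgeR; 0.061 with replicates 1 and 2 summed), and its groups did not overlap.

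**Figure D2:**
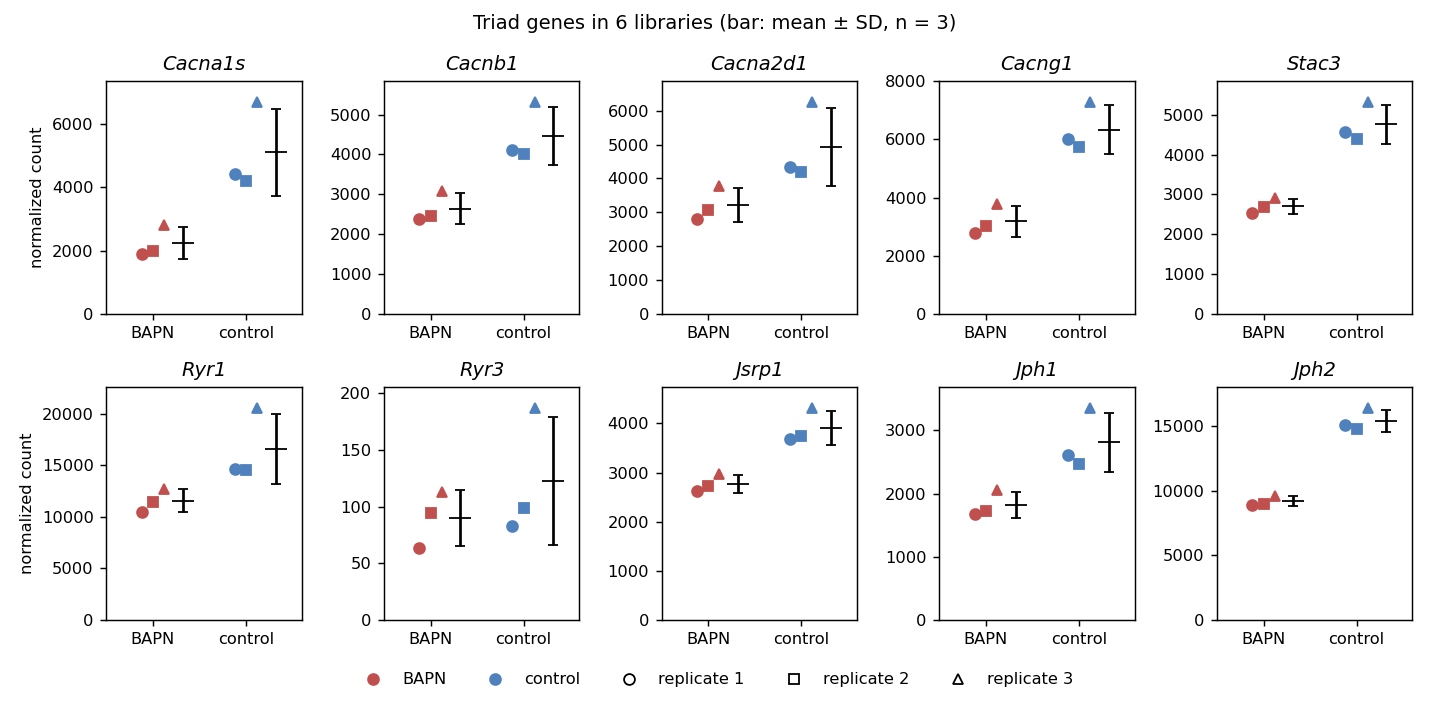
Normalized count (y axis, from 0) of each triad gene in the 6 libraries, BAPN on the left and control on the right of each panel, with the symbol giving the replicate and the bar the mean ± SD (n = 3). The 3 BAPN points lie below the 3 control points in every panel but that of Ryr3, where 94.1 and 112.9 with BAPN lie above the lowest control at 82.5.

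Replicate 3 was the highest library in both groups for all 10 members, a pattern found in 23.5% of all genes tested. The excess of replicate 3 over the mean of replicates 1 and 2 differed between members. For Cacna1s it was 1.46-fold with BAPN and 1.55-fold in controls, whereas for Jph2 it was 1.07-fold with BAPN and 1.1-fold in controls. Within pairs of the same replicate number the fall was similar despite this: the median log2 ratio over the members was -0.70, -0.61 and -0.75 in pairs 1, 2 and 3. Ratios within pairs were below 0 for every member and pair, and for Ryr3 they were -0.37, -0.07 and -0.73. In the authors' deposited table the log2 fold changes of the members ran from -1.18 for Cacna1s to -0.40 for Ryr3.

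Levels between genes were set side by side as normalized counts per kilobase of merged exon (GENCODE M21). This assumes reads along the whole transcript, which the labels do not state. Merged exons pool all annotated transcripts of a gene (21.84 kb for Ryr1, 6.55 kb for Cacna1s). A gene whose expressed transcript is shorter than that is set too low, so the order holds for this scale only. Cacng1 was the highest on this scale, at 2552 ± 426 with BAPN and 5075 ± 662 in controls (n = 3 each, SD). Jph2 (2159 with BAPN, 3624 in controls) and Jsrp1 (2082 with BAPN, 2943 in controls) came next. Among BAPN libraries, Cacng1 overlapped Jph2 and Jph2 overlapped Jsrp1, whereas among controls neither pair did. Stac3 followed at 1064 ± 73.5 with BAPN and 1876 ± 193 in controls, apart from both neighbours in the order.

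The other channel subunits, Ryr1 and Jph1 came next in the order. Cacnb1 had 582 with BAPN and 987 in controls per kilobase, Cacna1s 341 with BAPN and 780 in controls, and Ryr1 530 with BAPN and 759 in controls. Jph1 had 364 with BAPN and 562 in controls, and Cacna2d1 259 with BAPN and 396 in controls. In controls each of these 5 overlapped the next, so neighbours in the order were not resolved beyond the spread between libraries. Genes farther apart could be, since Cacnb1 (883 to 1173) lay above Jph1 (493 to 670) and Cacna2d1 (336 to 503). Within each control library Cacnb1 was the highest of them, Jph1 lay below Cacna1s and Ryr1, and Cacna2d1 was the lowest. With BAPN the order of the means was Cacnb1, Ryr1, Jph1, Cacna1s and Cacna2d1. Of these neighbours only Ryr1 and Jph1 did not overlap. Ryr3 stood far below, at 4.75 ± 1.31 with BAPN and 6.46 ± 2.96 in controls, and Ryr1 exceeded it 111-fold with BAPN and 118-fold in controls.

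**Figure D3:**
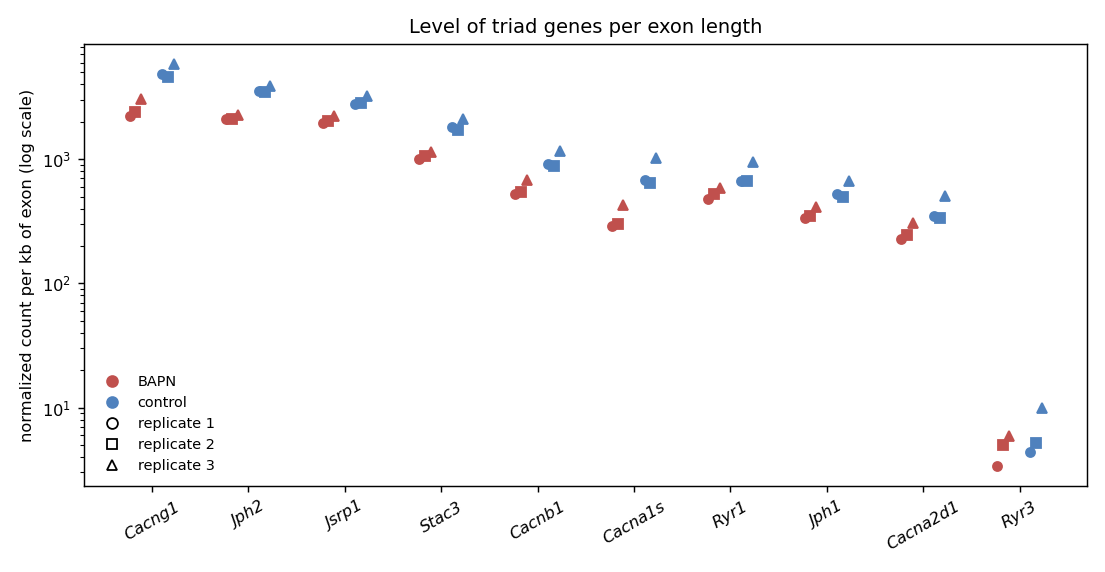
Normalized count per kilobase of merged exon (y axis, log scale) of each triad gene in each library, BAPN left and control right of each gene, ordered by the control mean. Cacng1 leads with 2219 to 3032 in BAPN libraries and 4586 to 5828 in control libraries, and Ryr3 averages 4.75 with BAPN and 6.46 in controls.

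To see whether the members fell by unequal amounts, 8 ratios between them were taken within each library, where the scaling of libraries cancels. With 3 libraries against 3, a two-sided exact permutation test cannot give a p below 0.10, so none could pass 0.05. Ryr1 over Cacna1s had a log2 ratio of 2.47, 2.54 and 2.18 with BAPN, against 1.72, 1.80 and 1.62 in controls. The groups did not overlap, and the difference was 0.68 (exact p = 0.10, 0.20 adjusted over the 8 ratios). Relative to Cacna1s, Jsrp1 (difference 0.69), Cacna2d1 (0.58) and Cacnb1 (0.43) were also higher in every BAPN library than in every control library. Each had an exact p of 0.10 (0.20 adjusted). Cacna1s is the member with the largest fall, so a difference above 0 was fixed by taking the ratios over it. These ratios share that gene and restate the fold changes above, so they are not separate observations.

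Relative to Cacna1s, the groups overlapped for Cacng1 and Stac3. The difference of the log2 ratio was 0.19 for Cacng1 and 0.37 for Stac3 (exact p = 0.30 for each, 0.343 adjusted). For the paralogs, Jph2 over Jph1 differed by -0.13 (exact p = 0.30, 0.343 adjusted), and Ryr3 over Ryr1 by 0.11 (exact p = 0.80, 0.80 adjusted). Within the 3 pairs of libraries with the same number, these ratios were less spread. Stac3 over Cacna1s differed by 0.37 in each pair, although BAPN replicate 3 lay below control replicate 2. Cacng1 over Cacna1s differed by 0.11, 0.16 and 0.30 in pairs 1, 2 and 3, and Jph2 over Jph1 by -0.12, -0.20 and -0.06. Ryr3 over Ryr1 differed by 0.10, 0.28 and -0.04, with no common sign.

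**Figure D4:**
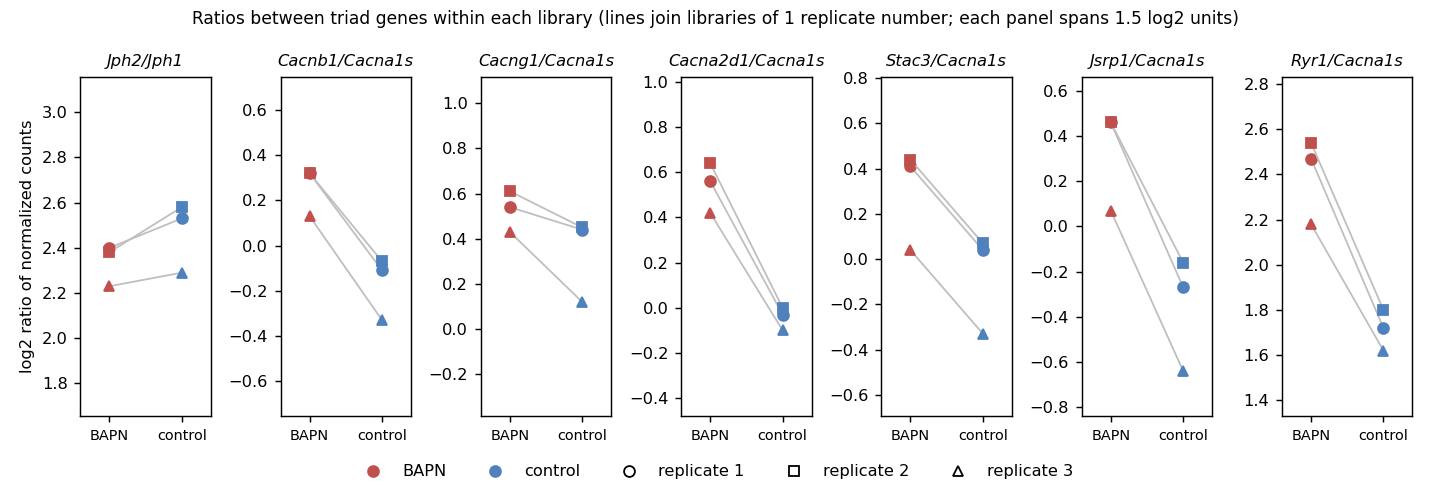
Log2 ratio of normalized counts between 2 triad genes in each library (y axis, every panel spanning 1.5 units), BAPN on the left and control on the right, with lines joining libraries of the same replicate number. The lines of Ryr1 over Cacna1s join 2.47, 2.54 and 2.18 with BAPN to 1.72, 1.80 and 1.62 in controls, and those of Jph2 over Jph1 run the other way by a small amount.

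Other genes of excitation and calcium handling were read from lists drawn up with earlier results of these data known, and each list is given by its counts, to be read against 20.8% called lower and 15.6% called higher over all genes. Of 20 tested partners of calcium release, 11 were lower, 1 was higher and 8 were not called, with a median log2 fold change of -0.44. Tmem38a, the counter-ion channel of the reticulum, had 5167.4, 5318.1 and 5888.8 normalized counts with BAPN, against 8832.4, 8495.4 and 10936.3 in controls (log2 fold change -0.79, adjusted p = 0.0014 in edgeR). Its paralog Tmem38b (-0.60, adjusted p = 0.0046 in edgeR) and the kinase Speg, which is found at triads (-0.55, 0.0096), were lower too. With BAPN replicate 1 left out 4 partners were called lower, with BAPN replicate 2 left out 4, and with replicates 1 and 2 summed 2.

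Several partners are described for their role, after their values were seen. The calcium-binding proteins of the store, Casq1 (-1.28, adjusted p = 0.021 in edgeR) and Casq2 (-0.85, 0.014), and Trdn, triadin, which anchors calsequestrin to the ryanodine receptor (-0.81, 0.026), were lower, but none of these 3 was called without BAPN replicate 1, without BAPN replicate 2 or with replicates 1 and 2 summed. Asph, whose gene also encodes junctin, averaged 3292 ± 24.0 normalized counts with BAPN, against 3321 ± 41.6 in controls (n = 3 each, SD; adjusted p = 0.87 in edgeR). That gene makes further products, which counts per symbol do not separate. Fkbp1a, which binds Ryr1, had a log2 fold change of -0.17 (adjusted p = 0.080 in edgeR, 0.025 with the replicate block, 0.28 with replicates 1 and 2 summed). The partner that was higher was Homer1, a scaffold protein, by 0.27 on the log2 scale (adjusted p = 0.010 in edgeR).

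Of 16 tested genes of T-tubule formation and upkeep, 9 were lower and 1 was higher (median -0.47). Ank1, of which a small muscle isoform anchors the reticulum, Xirp1, an actin-binding protein, and Murc, a caveolar protein of muscle, had log2 fold changes of -0.60, -0.66 and -0.68 (adjusted p = 8.3e-04, 0.0011 and 0.0020 in edgeR). Bin1, which bends the tubule membrane, was not called (31139 ± 3363 with BAPN and 37780 ± 4002 in controls, n = 3 each, SD; adjusted p = 0.077 in edgeR). Its log2 fold change was -0.28, and the edgeR adjusted p was 0.0029 with the replicate block and 0.28 with replicates 1 and 2 summed. Dnm2, a dynamin that cuts membrane tubules, was the gene that rose (0.33, adjusted p = 0.0041 in edgeR). Leaving out BAPN replicate 1 or BAPN replicate 2 left 5 of them lower, and summing replicates 1 and 2 left 4. Bin1 and Dnm2 were chosen after their values were seen.

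Calcium uptake and entry went both ways. Of 15 tested genes, 5 were lower and 2 higher (median -0.33; 8 lower with the replicate block and 3 with replicates 1 and 2 summed). Atp2b4, a calcium pump of the cell membrane, had 110.5, 129.5 and 77.7 normalized counts with BAPN, against 518.6, 499.0 and 530.6 in controls (log2 fold change -2.28, adjusted p = 1.5e-04 in edgeR). Its paralog Atp2b1 had 8663.9, 8956.0 and 8550.8 with BAPN, against 5258.3, 4978.9 and 5033.8 in controls (0.78, adjusted p = 1.8e-04 in edgeR). The groups were far apart for both pumps, in opposite directions. Stim2, a calcium sensor of the store, was lower (-0.52, adjusted p = 0.0012 in edgeR). Named after their values were seen, the pump of the reticulum of fast muscle, Atp2a1, was lower (-1.19, adjusted p = 0.0066 in edgeR), and Atp2a3, the pump isoform better known from non-muscle cells, was higher (2.23, adjusted p = 0.0074 in edgeR).

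Of 14 tested genes of membrane excitation, 6 were lower and 1 higher (median -0.36). Atp1b1, a subunit of the sodium pump, was higher (0.47, adjusted p = 0.0023 in edgeR). Chrng, the fetal subunit of the acetylcholine receptor, and Kcnn3, a calcium-activated potassium channel, were lower (-0.61 and -1.22, adjusted p = 0.0041 and 0.016 in edgeR). Leaving out BAPN replicate 1 left 2 of them lower and leaving out BAPN replicate 2 left 1, and summing replicates 1 and 2 left 0. Without BAPN replicate 3, 3 were higher, and without control replicate 1, 4 were lower.

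Paralogs of the members had a median near 0, although the one with the most counts was lower. Of 15 tested, 3 were lower, 2 higher and 10 not called, with a median of 0.01 (5 lower and 4 higher with the replicate block; 1 and 1 with replicates 1 and 2 summed; 1 lower without BAPN replicate 1, 2 without BAPN replicate 2, and 4 higher without BAPN replicate 3). Cacnb3, another beta subunit, had 789.6, 776.8 and 796.8 normalized counts with BAPN, against 623.5, 640.3 and 601.3 in controls, giving a log2 fold change of 0.34 (adjusted p = 0.0047 in edgeR). This was the opposite direction to Cacnb1, with no overlap between groups for either gene. Cacng7 (-1.07, adjusted p = 0.0021 in edgeR) was lower and Cacna1i, a T-type channel (1.65, adjusted p = 0.0040 in edgeR), was higher, from 25.1 to 38.3 normalized counts with BAPN and 8.1 to 11.2 in controls. Named after their values were seen, Cacng6 (-0.72, adjusted p = 0.016 in edgeR) and Cacna2d2 (-1.68, 0.014) were the other paralogs called lower. Cacng6 had the most counts, at 1684 ± 187 with BAPN and 2774 ± 762 in controls (n = 3 each, SD). Neither call held without BAPN replicate 1 or with replicates 1 and 2 summed. The 22 paralogs counted summed to 4079 to 4415 with BAPN and 4876 to 6637 in controls. Ryr2, the cardiac ryanodine receptor, was below the tested range, with at most 2.8 normalized counts in any BAPN library and 1.1 in any control library.

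**Figure D5:**
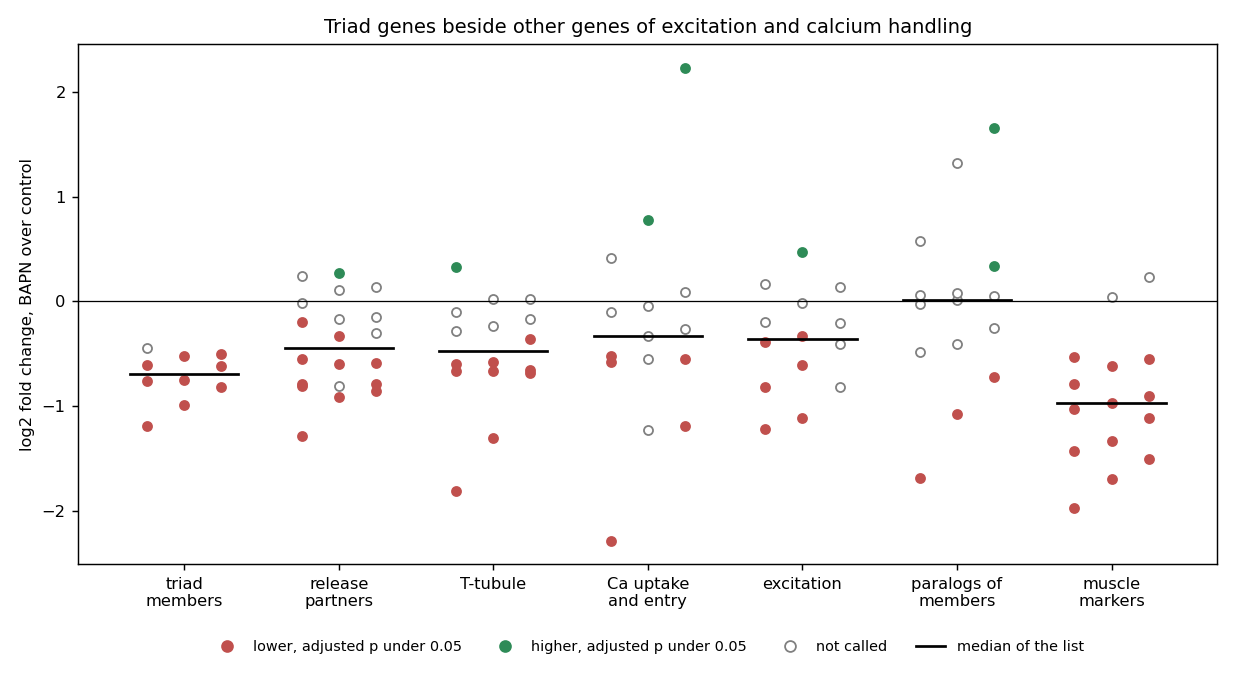
Log2 fold change, BAPN over control (y axis), of each tested triad gene and of the genes of 6 other lists (x axis), with called genes filled, uncalled ones open and the median of each list as a line. The medians are -0.69 for the triad genes, -0.44 for release partners, 0.01 for paralogs and -0.97 for muscle markers.

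Most general muscle markers were lower in the same libraries, and markers of other cells moved less evenly. Of 15 tested muscle markers and regulators, 13 were lower and 0 higher (median -0.97). The 2 not called were Pax7 (0.23, adjusted p = 0.44 in edgeR) and Myf5 (0.04, 0.93), and the groups overlapped for both. Myog, the transcription factor myogenin, had a log2 fold change of -1.33, Myod1, its upstream relative, -0.53, Myh3, embryonic myosin, -1.43, Ckm, muscle creatine kinase, -1.50 and Acta1, skeletal actin, -0.97 (adjusted p = 1.4e-04, 0.0085, 0.0018, 0.0032 and 0.0032 in edgeR). Of 7 tested genes of the fibroblast list, the collagen genes Col1a1, Col1a2 and Col3a1 were lower and 0 were higher. Outside the collagens the tested fibroblast markers went both ways. Pdgfra had a log2 fold change of 0.66 (adjusted p = 0.077 in edgeR, 0.021 with the replicate block). The list also held Tcf4 (chromosome 18), which encodes an E protein and is not specific to fibroblasts. The log2 fold change of Tcf4 was 0.18 (adjusted p = 0.064 in edgeR, 0.026 with the replicate block). Thy1 had -0.37 (adjusted p = 0.056 in edgeR, 0.042 with the replicate block), with no overlap between groups. Dcn had 0.10 (adjusted p = 0.78 in edgeR). Of the smooth muscle list, 5 of 5 tested were lower, and Myh11, Cnn1 and Kcnmb1 had fewer than 10 normalized counts on average. Of 3 tested macrophage markers, Cd68, a lysosomal protein, had 237.0, 245.9 and 137.8 normalized counts with BAPN, against 39.7, 55.9 and 27.6 in controls (log2 fold change 2.32, adjusted p = 0.0012 in edgeR). Itgam was lower (-1.10, adjusted p = 0.016 in edgeR; 0.077 with replicates 1 and 2 summed). The defining macrophage markers Ptprc, Adgre1, Csf1r and C1qa averaged below 10 normalized counts in both groups, and that list summed to 220 to 302 with BAPN and 149 to 254 in controls. Of 5 tested endothelial and 2 tested adipocyte markers, 0 were called. These markers of other cells were named after their values were seen. The neural and Schwann cell list, 1 of 3 tested higher, summed to 616 to 871 with BAPN and to 405 to 526 in controls, with Rbfox3 at 0 in every library. With replicates 1 and 2 summed, the calls of Speg, Homer1, Dnm2, Atp2a1, Cacnb3, Kcnn3, Chrng, Myod1 and Acta1 were lost, and that of Kcnn3 also without BAPN replicate 1 or BAPN replicate 2. The part of any of these marker lists in the fall of the triad genes was not tested.

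The 5 genes most like the members over the 6 libraries were Igf2, Hn1, Tmem182, Usp28 and Tpm2. Likeness was the root mean square distance, on the log2 scale, between a gene's profile and the mean profile of the 10 members, each centred on its own mean, among 10158 other genes whose mean reached 100 normalized counts. Igf2, a growth factor whose gene shares exonic sequence with Igf2os on the other strand, lay at a distance of 0.025 and had 47652.2, 49412.8 and 58997.8 normalized counts with BAPN, against 78511.1, 77250.0 and 104795.0 in controls. Tpm2, beta-tropomyosin, lay at 0.034. Among the members, Cacnb1 lay nearest to the mean profile (0.041), and Ryr3 (0.309) and Cacna1s (0.259) farthest from it.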

How the data were processed

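Raw counts and normalized counts were given for 6 libraries of mouse satellite cells, 3 with BAPN and 3 controls, grouped by their titles. The submitters' processing notes name STAR, HTSeq, cutadapt, DESeq2 and the build GRCm38 (mm10). Not given in the sources used here were their versions and roles, the annotation, and whether counting used strand. The authors deposited, per the file headers, raw counts per gene symbol. They also deposited normalized counts, a signal equal to the count divided by 1 size factor per library (0.9047 to 1.0737), and their own comparison, which holds p-values, raw and adjusted, beside log2 fold changes.

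The 13716 genes whose mean reached 10 normalized counts were tested on the raw counts with glmQLFit and glmQLFTest of edgeR 4.0.16 in R 4.3.3, scaled by the authors' size factors, without a block, and called at a Benjamini-Hochberg adjusted p under 0.05. All 10 members passed this filter. The standard errors given were derived from the test, as the size of the log2 fold change divided by the square root of its F statistic. Ratios were tested by two-sided exact permutation in SciPy 1.17.1. The members and lists were chosen with earlier results of these data known. Named by rule were the members, the 3 genes of each list with the smallest p, 5 muscle markers and the 5 nearest profiles. Positions are GENCODE M21. By that annotation Cacna1s, Cacnb1, Jph1, Ryr1 and Ryr3 share exonic sequence with a gene on the opposite strand. Same-numbered libraries deviated together from their group means (correlations across genes of 0.184, 0.191 and 0.366 for replicates 1, 2 and 3), so the numbers were taken to pair the samples by this check alone. It does not tell number 1 from number 2, since BAPN replicate 1 correlated at 0.229 with control replicate 2 and BAPN replicate 2 at 0.105 with control replicate 1. Differently numbered libraries that include a replicate 3 ran from -0.302 to -0.205. A fit with the replicate block was an alternative. Other alternatives were 3 scalings, 2 filters, DESeq2 1.42.0, limma-voom (limma 3.58.1), each library left out, replicate 3 left out, and replicates 1 and 2 summed. The edgeR step was tested on simulated data.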

Additional observations from a re-analysis of the deposited data

How the results depend on the processing

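The log2 fold changes of all 10 members stayed below 0 in the 16 alternative settings. Cacna1s, Cacng1, Stac3, Jph2 and Jsrp1 were called lower in each of them, Cacnb1 and Jph1 in 15, Ryr1 and Cacna2d1 in 13, and Ryr3 in 0. With replicates 1 and 2 summed, 5 members were called lower, and over all genes 809 lower and 716 higher, against 2850 and 2140 in the reported fit; fewer libraries enter that fit. Without both libraries of replicate 3, where only the close replicates 1 and 2 remain, 3223 genes were higher and 4265 lower, and 9 members lower. With the replicate block, 9 members were lower (27.0% of all genes), and no member's call changed. With 1 library left out, the members called lower numbered 7 to 9, all genes lower 1862 (without BAPN replicate 2) to 3113 and higher 1461 to 2329, and the median of the members was -0.76 (without BAPN replicate 3) to -0.55 (without control replicate 3). The difference in Ryr3 over Ryr1 ran from -0.04, without control replicate 1, to 0.30, so its sign was not fixed; the cause was not tested. Calls over all genes were 2381 lower and 2450 higher with TMM scaling, 2430 and 2433 with upper quartile scaling, and 2425 and 2385 with median-ratio scaling. TMM scaling moved the median of all genes to 0.013 and that of the members to -0.64. With 3 libraries a group, no ratio could pass 0.05 in the exact permutation test used. Ryr3 had 68 to 169 counts a library, with a coefficient of variation of 27.5% with BAPN and 45.8% in controls.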
